A study of Mus musculus with 6 samples.

Results

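Osteoclasts and foreign body giant cells are multinucleated cells that form when cells of the macrophage lineage fuse, on bone and around implanted material respectively. The 10 genes described here (Dcstamp, Ocstamp, Acp5, Ctsk, Atp6v0d2, Oscar, Calcr, Itgb3, Siglec15 and Nfatc1) serve fusion, resorption, signal reception and transcription in these cells. They were chosen by gene symbol, and all 10 were found among the 48440 genes of the count table. All 10 also passed the filter on low counts, which left 15257 genes for testing.

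Precursors of the myeloid lineage become osteoclasts under colony stimulating factor 1 (CSF1) and the ligand of the receptor RANK, helped by receptors that signal through adaptors with an immunoreceptor tyrosine-based activation motif (ITAM). These signals induce the transcription factor NFATc1, under which the cells fuse, secrete acid and release the enzymes that dissolve mineral and digest matrix. Foreign body giant cells arise from macrophages at the surface of a biomaterial and share part of this gene programme, while osteoclast-type cells resorb calcified cartilage when cartilage is replaced by bone.

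Cartilage engineered from rabbit bone marrow stromal cells (BEC) was enclosed in electrospun PCL/collagen membranes and placed under the skin of male BALB/c nude mice, and RNA of the subcutaneous mouse tissue entangled with it was sequenced 12 weeks later. The 0%-Axitinib group (3 samples) had membranes without drug, and the 3%-Axitinib group (3 samples) had membranes holding 3% by weight of axitinib, an inhibitor of the receptor tyrosine kinases for vascular endothelial growth factor. The comparison asks how the drug in the membrane changes the host tissue around BEC. The labels call the first group untreated, and it was read as the 0%-Axitinib group because the deposited protocol names only membranes with 0% or 3% of the drug.

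Both groups shared the mouse strain and sex, the rabbit construct, the membrane polymers and the time of sampling. The mice were 6 to 8 weeks old when purchased. Nude mice have no functional thymus and few T cells but keep monocytes, macrophages and their fused descendants, so these genes were measured in a host with few T cells. According to the methods, a pair of constructs of the same group was placed in each mouse, and the mouse behind each sample is not given in the sources used here. The p-values therefore measure the spread between samples that may share a mouse. By the methods, the implanted samples were harvested together with the entangled mouse tissue, so rabbit RNA may be part of the libraries. The species of the reads was not analysed here.

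The 0%-Axitinib libraries held 17761968, 16716411 and 18005908 reads on genes in replicates 1, 2 and 3. The 3%-Axitinib libraries held 9225518, 11686084 and 18403795. Expression is given as CPM, gene counts scaled by library size with TMM normalization, and a count of 3, taken as the limit of detection, equalled between 0.157 and 0.330 CPM. Limits and intervals cover counting error only.

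A pair of libraries stood apart. In 3%-Axitinib replicate 1, the shallowest library, 48.4% of the reads were unmapped (3.84% to 14.9% in the 0%-Axitinib group), and 10 genes of skeletal muscle summed to 13312 CPM. The muscle sum was 7406 CPM in 3%-Axitinib replicate 3 and at most 134 CPM in the other 4 samples. In 0%-Axitinib replicate 3, 8 genes of neutrophils and their marrow precursors summed to 37009 CPM, against at most 148 CPM elsewhere. Member results that rest on these libraries are given with and without them.

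The label of the gene group was checked against its own members. Reads of all 10 genes were counted in every sample. At the low end, Calcr had 2 reads and Oscar had 4 reads in 3%-Axitinib replicate 1, and the Calcr value was under the detection limit of this library. Genes of macrophages, the cells from which both kinds of giant cell form, were abundant in all samples. The 12 macrophage genes summed to 11835, 12356 and 8837 CPM in the 0%-Axitinib group and to 8742, 11041 and 17286 CPM in the 3%-Axitinib group, and none of them was at 0. Osteoclasts and foreign body giant cells share many of these genes, and which of these cells the reads came from was not tested.

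The estimate was below that of the 0%-Axitinib group for 9 of the 10 genes and above it for Ctsk. With library totals in place of TMM, which moved the median log2 fold change of all genes from -0.03 to -0.16, Ctsk was at -0.0066. Among all tested genes, 51.8% had a negative log2 fold change with TMM. The median log2 fold change of the 10 genes was -0.69, beside -0.03 over all tested genes. In RNA of whole tissue, fewer cells of a type and less RNA per cell cannot be told apart.

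Of the 10 genes, 1 (Itgb3) met the study's criterion, a fold change of at least 1.5 together with an unadjusted p no higher than 0.05 (quasi-likelihood test of edgeR), and it was lower in the 3%-Axitinib group. Over all tested genes the criterion was met by 21.2%, with 11.7% lower (1785 genes) and 9.54% higher (1456 genes), so in this fit the share among the 10 genes was not above that of all tested genes. With DESeq2's Wald test the criterion was met by 3 of the 10 genes and 23.5% of all genes, and with library totals by 3 and 22.5%. With library totals the split over all genes was 2448 lower and 989 higher. When p was adjusted by Benjamini-Hochberg across the tested genes, 0 of the 10 genes passed 0.05 in edgeR, while 1 had an unadjusted p of at most 0.05 (23.5% of all tested genes). Of all tested genes, 1 passed the adjusted threshold (0.00655%), a count that became 1252 when 0%-Axitinib replicate 3 was left out and 58 when 3%-Axitinib replicate 2 was. DESeq2's Wald test also passed 0 of the 10 genes, with 0.0556 as their smallest adjusted p, beside 13.3% of all genes.

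In 3 of the 10 genes (Dcstamp, Itgb3 and Siglec15) all treated samples were below all 0%-Axitinib samples, beside 16.6% of all tested genes with groups apart in that direction. These counts turned on single libraries. The criterion was met by 0 of the 10 genes when replicate 1 or replicate 3 of the 3%-Axitinib group was left out (14.9% and 15.5% of all tested genes), and by 3 when its replicate 2 was (17.2%). The groups were apart as lower in 8 of the 10 genes without 3%-Axitinib replicate 2 (21.4% of all tested genes). Without 0%-Axitinib replicate 3, 1 of the 10 genes (Atp6v0d2) passed the adjusted threshold, beside 7.98% of the genes tested in that fit.

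The samples of the 3%-Axitinib group did not move as one. Replicate 1 had the lowest value of 9 of the 10 genes, although it was lowest for only 12.7% of all tested genes. Replicate 2 had the highest value of 3 genes (Ocstamp, Calcr and Nfatc1), beside 16.4% of all tested genes. In the 0%-Axitinib group, replicate 3 was highest for 4 genes, beside 28.3%, and replicate 2 for 3, beside 20.5%. Without 3%-Axitinib replicate 1, the median log2 fold change of the 10 genes was -0.34. It was -0.09 with 0%-Axitinib replicate 3 left out as well, and -1.48 without 3%-Axitinib replicate 2.

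**Figure D1:**
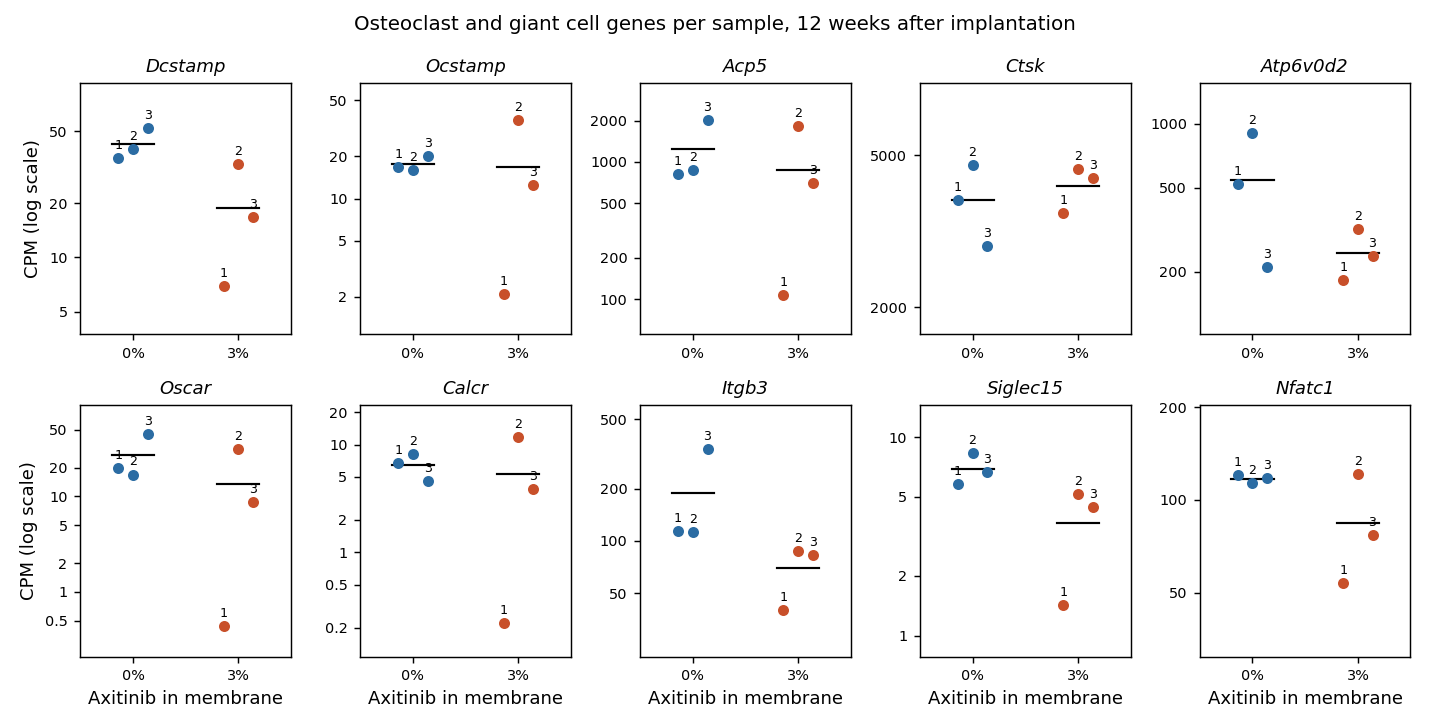
CPM of each of the 10 genes (log scale) in the 3 samples of the 0%-Axitinib group (blue) and the 3 samples of the 3%-Axitinib group (orange), with replicate numbers beside the points and the group mean as a line. Replicate 1 of the 3%-Axitinib group is the lowest point for 9 genes, down to 0.220 CPM for Calcr.

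Fusion of precursor cells depends on Dcstamp and Ocstamp, which encode membrane proteins with several transmembrane passes (dendritic cell-specific and osteoclast stimulatory transmembrane protein). Dcstamp (chr15:39745930-39760938, GRCm38) was at 35.7, 39.9 and 52.4 CPM in 0%-Axitinib replicates 1, 2 and 3, and at 6.93, 33.1 and 16.7 CPM in the 3%-Axitinib samples. All of the latter lay below all of the former, with 3%-Axitinib replicate 2 close under the 0%-Axitinib range and replicate 1 far below it. The group means were 42.7 ± 8.66 and 18.9 ± 13.2 CPM (SD, n = 3 each). The log2 fold change of Dcstamp was -1.17 (SE 0.52), with an adjusted p of 0.224 in edgeR's quasi-likelihood test and an unadjusted p of 0.0574. Dcstamp met the criterion with all samples under library totals, DESeq2's Wald test, limma-voom and no filter, and also without 3%-Axitinib replicate 2 (-1.83). The estimate was -0.77 without 3%-Axitinib replicate 1 and -0.61 with 0%-Axitinib replicate 3 left out as well.

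Ocstamp (chr2:165393760-165400405) was at 16.8, 16.0 and 20.2 CPM in the 0%-Axitinib group and at 2.09, 36.0 and 12.5 CPM in the 3%-Axitinib group. The 0%-Axitinib samples were close together, and the 3%-Axitinib samples spread on both sides of them, so the groups overlapped. Its log2 fold change was -0.06 (SE 0.81, adjusted p of 0.968 in edgeR). Its sign changed to 0.46 without 3%-Axitinib replicate 1, to 0.11 without 3%-Axitinib replicate 3, and to 0.04 without 0%-Axitinib replicate 3, while it was -1.25 with 3%-Axitinib replicate 2 left out. Neither of the fusion genes met the criterion in the main edgeR fit (TMM, filtered genes, no block), and the difference between them was not tested.

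Resorption rests on tartrate-resistant acid phosphatase (Acp5), the collagen-cleaving protease cathepsin K (Ctsk) and a subunit of the proton pump V-ATPase (Atp6v0d2), the last of which also serves fusion. Acp5 (chr9:22126727-22135711) was at 818, 867 and 2033 CPM in the 0%-Axitinib group and at 107, 1832 and 700.2 CPM in the 3%-Axitinib group. The highest samples were 0%-Axitinib replicate 3 and 3%-Axitinib replicate 2, the lowest was 3%-Axitinib replicate 1, and the groups overlapped. Acp5 had a log2 fold change of -0.49 (SE 0.90, adjusted p of 0.765 in edgeR). It turned to 0.04 without 3%-Axitinib replicate 1, to 0.06 without 0%-Axitinib replicate 3, and to 0.58 without both, and it was -1.60 with 3%-Axitinib replicate 2 left out. A transcript annotated on the other strand (6530413G14Rik) overlaps Acp5, and whether the counting used the strand is not given in the sources used here, so reads of the pair cannot be told apart.

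Ctsk (chr3:95499256-95509362) was at 3823, 4726 and 2901 CPM in the 0%-Axitinib group and at 3540.5, 4596 and 4366 CPM in the 3%-Axitinib group. It was the steadiest member, with all 3%-Axitinib samples inside the range of the 0%-Axitinib samples, and the only one that was not lowest in 3%-Axitinib replicate 1. Ctsk had a log2 fold change of 0.13 (SE 0.35, adjusted p of 0.849 in edgeR), and it was -0.04 without 0%-Axitinib replicate 3. Fibroblasts are a known further source of cathepsin K. The 8 fibroblast genes, led by Col1a1, summed to 26872, 13309 and 10631 CPM in the 0%-Axitinib group and to 23652, 71025 and 26306 CPM in the 3%-Axitinib group, and their part in the Ctsk values was not tested.

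Atp6v0d2 (chr4:19876841-19922605) was at 523, 902 and 212 CPM in the 0%-Axitinib group and at 183, 319 and 238 CPM in the 3%-Axitinib group. 0%-Axitinib replicates 1 and 2 were above all other samples, while 0%-Axitinib replicate 3 lay among the 3%-Axitinib samples, so the groups overlapped. The means were 546 ± 346 and 247 ± 68.4 CPM (SD, n = 3 each). For Atp6v0d2 the log2 fold change was -1.14 (SE 0.52, unadjusted p of 0.0644 and adjusted p of 0.237 in edgeR). Without 0%-Axitinib replicate 3, the library with marrow genes, it was -1.53 with an adjusted p of 0.049 in edgeR, and over the other alternatives the adjusted p of Atp6v0d2 was above 0.05. With 3%-Axitinib replicate 1 also left out it was -1.36 and met the criterion, with an adjusted p of 0.108. It was -0.58 without 0%-Axitinib replicate 2. With all samples Atp6v0d2 met the criterion under library totals, DESeq2's Wald test and no filter.

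Among the receptors, integrin beta 3 (Itgb3, chr11:104608000-104670476) pairs with integrin alpha v to attach osteoclasts to matrix. Itgb3 was at 114, 112 and 338 CPM in the 0%-Axitinib group and at 40.1, 87.1 and 83.1 CPM in the 3%-Axitinib group. All 3%-Axitinib samples were below all 0%-Axitinib samples, 0%-Axitinib replicate 3 stood far above the rest, and the gap between 3%-Axitinib replicate 2 and the lower 0%-Axitinib samples was small. Itgb3 changed by -1.42 on the log2 scale (SE 0.53), with an unadjusted p of 0.0304 and an adjusted p of 0.172 in edgeR, so Itgb3 fell by the study's criterion and not after adjustment.

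The Itgb3 call was lost without 0%-Axitinib replicate 3 (log2 fold change -0.69, unadjusted p of 0.0807 in edgeR) and without replicate 1 (-1.13) or 3 (-1.55) of the 3%-Axitinib group. With 0%-Axitinib replicate 3 and 3%-Axitinib replicate 1 both left out it was -0.42. The gene of integrin alpha v, Itgav, was at 124, 134 and 91.5 CPM in the 0%-Axitinib group and at 65.5, 86.6 and 33.9 CPM in the 3%-Axitinib group. Itgav met the criterion as lower with groups apart (log2 fold change -0.91, SE 0.36, adjusted p of 0.186 in edgeR). This call was not examined with samples left out. Integrin beta 3 also pairs with integrin alpha IIb (Itga2b) on megakaryocytes and platelets. Itga2b was at 232 CPM in 0%-Axitinib replicate 3 and between 7.76 and 17.0 CPM in the other samples. It did not meet the criterion, and its groups overlapped. Itgav and Itga2b were both chosen after their values were seen. The 8 genes of megakaryocytes and platelets, led by Pf4, summed to 122, 74.2 and 972 CPM in the 0%-Axitinib group and to 185, 250 and 188 CPM in the 3%-Axitinib group. Of the 6 tested, 1 met the criterion as lower. The count was 5, 4 and 0 when replicates 1, 2 and 3 of the 0%-Axitinib group were left out in turn. It was 0 without any 1 of the 3%-Axitinib samples, and without 0%-Axitinib replicate 3, 1 gene met the criterion as higher. Gp9 was at 0 in the 3%-Axitinib samples and had 4, 2 and 592 reads in the 0%-Axitinib samples. Endothelial cells can carry integrin beta 3 with integrin alpha v, and the 8 endothelial genes, led by Pecam1, summed to 695, 476 and 725 CPM against 145, 206 and 255 CPM. All 8 endothelial genes met the criterion as lower in the 3%-Axitinib group, none was at 0, and the part of either cell type in the Itgb3 values was not tested.

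Oscar (chr7:3609813-3616157) encodes an activating immunoglobulin-like receptor that binds collagen and signals through an ITAM adaptor. Its values were 19.6, 16.9 and 44.6 CPM in the 0%-Axitinib group and 0.440, 31.2 and 8.68 CPM in the 3%-Axitinib group. The 3%-Axitinib samples covered a wide range on the log scale, and the groups overlapped. The lowest value rested on 4 reads (95% Poisson interval 0.120 to 1.13 CPM) and was below every other sample beyond counting error. Between the groups Oscar had a log2 fold change of -1.01 (SE 1.08, adjusted p of 0.592 in edgeR). It was -2.51 without 3%-Axitinib replicate 2, -0.43 when replicate 1 was left out, and 0.11 with 0%-Axitinib replicate 3 left out in addition to replicate 1.

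Calcr (chr6:3685680-3764714), the receptor through which calcitonin stops resorption, is a marker of mature osteoclasts. Calcr was at 6.73, 8.16 and 4.56 CPM in the 0%-Axitinib group and at 0.220, 11.8 and 3.88 CPM in the 3%-Axitinib group. The highest and the lowest sample were both in the 3%-Axitinib group, and the groups overlapped. The lowest value rested on 2 reads (95% Poisson interval 0.0266 to 0.795 CPM). The log2 fold change was -0.28 (SE 0.99, adjusted p of 0.881 in edgeR) and turned to 0.27 without 3%-Axitinib replicate 1, while it was -1.61 with 3%-Axitinib replicate 2 left out. The annotation places the microRNA genes Mir489 and Mir653 inside Calcr on the same strand.

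Siglec15, a sialic acid-binding receptor on chromosome 18 that works with the adaptor DAP12 in osteoclast maturation, was at 5.79, 8.28 and 6.68 CPM in the 0%-Axitinib group and at 1.43, 5.19 and 4.46 CPM in the 3%-Axitinib group. All 3%-Axitinib samples were below all 0%-Axitinib samples, by a small margin for replicate 2. The log2 fold change was -0.90 (SE 0.50, adjusted p of 0.311 in edgeR), and leaving out each sample in turn moved it between -1.20 and -0.51 without meeting the criterion.

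Nfatc1, also on chromosome 18, encodes the transcription factor that switches on many of the other members. It was at 120.3, 114 and 118 CPM in the 0%-Axitinib group and at 53.8, 122 and 76.9 CPM in the 3%-Axitinib group. The 0%-Axitinib samples were nearly equal, 3%-Axitinib replicate 2 was just above them, and replicates 1 and 3 were below. The log2 fold change was -0.48 (SE 0.30, adjusted p of 0.370 in edgeR). Without 3%-Axitinib replicate 2 it was -0.84 and Nfatc1 met the criterion, with an adjusted p of 0.204. It was -0.24 without 3%-Axitinib replicate 1. An antisense transcript (AC123818.1) overlaps Nfatc1, and their reads cannot be told apart without the strand.

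Set against the mean log2 CPM of the 0%-Axitinib group, the 3 treated samples gave distinct profiles over the 10 genes. In 3%-Axitinib replicate 1 the difference was -5.44 for Oscar, -3.40 for Acp5, -2.99 for Ocstamp and -2.58 for Dcstamp. It was smaller in size for Nfatc1 (-1.12) and near 0 for Ctsk (-0.08), and no difference is given for Calcr, which was under the detection limit there. The order was different in 3%-Axitinib replicate 2, where Ocstamp (1.03), Calcr (0.89) and Acp5 (0.70) were above the 0%-Axitinib mean and Itgb3 (-0.90) and Atp6v0d2 (-0.54) below it. In 3%-Axitinib replicate 3, all members but Ctsk (0.22) were below the 0%-Axitinib mean, from -1.49 for Oscar to -0.49 for Ocstamp.

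Levels were compared between genes as CPM per kilobase of exon. By the mean over the 6 samples, Ctsk had the highest level, with group means of 2524 ± 604 (0%-Axitinib) and 2756 ± 367 CPM per kilobase (3%-Axitinib) (SD, n = 3 each). Acp5 came next, with levels of 610.4 ± 339 and 433 ± 432 CPM per kilobase. Atp6v0d2 followed with levels of 201 ± 127 and 91.0 ± 25.2 CPM per kilobase. The lowest Ctsk sample (1918) lay above the highest Acp5 sample (1002), while the ranges of Acp5 and Atp6v0d2 overlapped.

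The 3 resorption genes were above all other members in every sample, and Itgb3 led the remaining members with mean levels of 31.9 ± 22.0 and 11.9 ± 4.41 CPM per kilobase. Nfatc1 stood at a level of 15.7 ± 0.443 and 11.3 ± 4.63, and Dcstamp at 16.0 ± 3.25 and 7.10 ± 4.96 CPM per kilobase. Oscar was at a level of 14.6 ± 8.26 and 7.27 ± 8.61 CPM per kilobase. Neighbours in this order from Itgb3 to Oscar overlapped in their samples. Ocstamp (levels of 4.82 and 4.61 CPM per kilobase), Siglec15 (5.99 and 3.20) and Calcr (1.66 and 1.36) closed the order, and their samples overlapped as well.

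Across the 6 samples most members moved together. Dcstamp, Ocstamp, Acp5, Oscar, Calcr, Siglec15 and Nfatc1 had r of at least 0.864 with each other, while Itgb3 was between 0.553 (Calcr) and 0.855 (Dcstamp) with them and Atp6v0d2 between 0.271 (Acp5) and 0.650 (Siglec15). Oscar and Acp5 had the highest Pearson correlation of log2 CPM between members (r = 0.985), and Dcstamp and Nfatc1 reached 0.967. Ctsk went with none of them closely, with r from -0.464 (Itgb3) to 0.577 (Atp6v0d2). These values describe the same 6 libraries, which share the low values of 3%-Axitinib replicate 1, and they were not tested. The Calcr value in that replicate was under the detection limit.

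Among 14342 other genes with a mean of at least 1 CPM, the patterns nearest to each member were ranked in the same way. Acp5 was nearest to Mmp9, a gelatinase that osteoclasts release (r = 0.994), then to a gene whose symbol had been turned into a date, and then to Oscar. Oscar was nearest to Rufy4 (0.990), Zfand1 and Acp5. Ocstamp (0.993) and Calcr (0.979) shared the nearest gene A130010J15Rik, followed by Rufy4 and Opn3 for Ocstamp and by Hecw2 and Ocstamp for Calcr. For Nfatc1 the nearest gene was Slc9b2 (0.984), a sodium-proton exchanger of osteoclasts, before St8sia6 and Nr5a2.

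Dcstamp was nearest to Itm2c (0.995), Ss18l1 and Tox2, and Itgb3 had Arfip1 and Prr5l among its 3 nearest genes. Siglec15 lay nearest to 9430015G10Rik (0.987), Slc12a5 and 1700026D08Rik. The members with another order of samples had other neighbours, namely Pqlc3 (0.996), Rcbtb1 and Adcy3 for Atp6v0d2 and Nostrin (0.986), Parp2 and Cdk5rap2 for Ctsk. All these r values are over n = 6 samples and are given as a description.

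**Figure D2:**
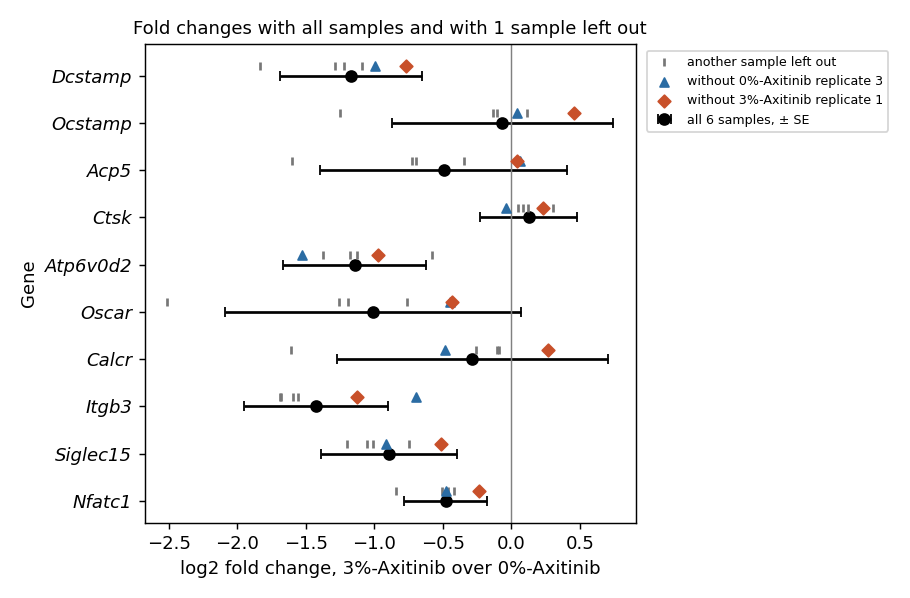
Log2 fold change of the 3%-Axitinib over the 0%-Axitinib group for the 10 genes with all 6 samples (black points, bars are SE) and with 1 sample left out (other marks). Without 3%-Axitinib replicate 1 the value moves to 0.46 for Ocstamp and 0.27 for Calcr, and without 0%-Axitinib replicate 3 it moves to -0.69 for Itgb3 and -1.53 for Atp6v0d2.

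The other genes of osteoclast and giant cell formation were taken from a list of 60, all of which were tested. Of these, 12 met the criterion as lower and 3 as higher in the 3%-Axitinib group, together 25% beside 21.2% of all tested genes. With library totals, 19 met it as lower and 2 as higher, beside 22.5% of all tested genes. After adjustment in edgeR 0 passed, 16 had an unadjusted p of at most 0.05 (26.7% beside 23.5%), and DESeq2's Wald test passed 7 of the 59 that it gave an adjusted p (11.9% beside 13.3%). The 0 did not hold without 0%-Axitinib replicate 3, where Fosl2 (adjusted p of 0.0379), Vav3 (0.0393) and Tm4sf19 (0.0428) passed in edgeR. In that fit 7.98% of all tested genes passed. The median log2 fold change of the pathway genes was -0.47 (all tested genes: -0.03), 45 of 60 were negative, and the groups were apart in 11 genes as lower and in 4 as higher (all tested genes: 16.6% and 14.7%). The count of 15 was 21 without 0%-Axitinib replicate 3 (28.2% of all tested genes), and 8 when its replicate 2 was left out (16.7%). It was 6 with replicate 1 (14.9%) and 8 with replicate 2 (17.2%) of the 3%-Axitinib group left out. With 0%-Axitinib replicate 3 and 3%-Axitinib replicate 1 both left out, 13 met the criterion as lower and 1 as higher (25.5% of all tested genes). 3%-Axitinib replicate 1 was the lowest sample for 20 of the 60 (12.7% of all tested genes), and 0%-Axitinib replicate 3 for 14 (26.8%).

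In the RANK ligand system 0 of 4 genes met the criterion, and 1 (Traf6) had an unadjusted p below 0.05 in edgeR. The receptor gene Tnfrsf11a was at 65.5, 119 and 30.5 CPM in the 0%-Axitinib group and at 27.4, 43.1 and 41.3 CPM in the 3%-Axitinib group, the same order of samples within the 0%-Axitinib group as for Atp6v0d2. The groups overlapped through 0%-Axitinib replicate 3, and the log2 fold change was -0.94 (SE 0.47, adjusted p of 0.272 in edgeR). Without 0%-Axitinib replicate 3 it was -1.31 and met the criterion, and it was -0.37 when replicate 2 of the same group was left out. Traf6, the adaptor of RANK, was at 28.5, 31.3 and 35.4 CPM against 23.0, 22.0 and 21.9 CPM. Its groups were apart by a small step, with a log2 fold change of -0.51 (SE 0.18) that was below the fold required, and an adjusted p of 0.162 in edgeR.

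In the CSF1 system 0 of 3 genes met the criterion, and its receptor gene Csf1r, also a macrophage gene, had a log2 fold change of -0.20 (SE 0.33, adjusted p of 0.745 in edgeR). Of the 10 ITAM adaptors and kinases, 4 met the criterion as lower and 3 had groups apart in that direction (11.7% and 16.6% of all tested genes). Beside the counts with all samples for each role and each cell type list, 11.7% of all tested genes met the criterion as lower and 9.54% as higher. With 1 sample left out, 14.9% to 28.2% of all tested genes met it in either direction. Without both libraries that stood apart the share was 25.5%. Vav3, an exchange factor that osteoclasts need for their cytoskeleton, was at 27.0, 40.9 and 29.4 CPM in the 0%-Axitinib group and at 14.7, 15.2 and 14.1 CPM in the 3%-Axitinib group. The 3%-Axitinib samples were nearly equal and well below all 0%-Axitinib samples. Vav3 fell by 1.14 on the log2 scale (SE 0.23, adjusted p of 0.0965 in edgeR), and met the criterion with each sample left out in turn and without both libraries that stood apart.

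Plcg2 (log2 fold change -0.88, SE 0.31, adjusted p of 0.159 in edgeR) and Btk (-0.78, SE 0.28, adjusted p of 0.169), a phospholipase and a kinase downstream of ITAM signals, also met the criterion with groups apart. Both calls were lost without 0%-Axitinib replicate 3 (-0.50 and -0.49), without 3%-Axitinib replicate 1 (-0.79 and -0.62) and without 3%-Axitinib replicate 2 (-0.85 and -0.78). The most abundant gene of the role per kilobase, the adaptor gene Tyrobp (DAP12), had overlapping groups and a log2 fold change of -0.26 (SE 0.29, adjusted p of 0.608 in edgeR).

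Of the 10 transcription factors, 2 met the criterion as lower. Fosl2, a member of the AP-1 family, was at 183, 149 and 165 CPM in the 0%-Axitinib group and at 91.8, 79.4 and 77.0 CPM in the 3%-Axitinib group. The groups were clearly apart, and the samples within each were close together. Fosl2 fell by 1.00 on the log2 scale (SE 0.19, adjusted p of 0.0965 in edgeR) and met the criterion with each sample left out in turn and without both libraries that stood apart.

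Prdm1 (Blimp1), which represses the inhibitors of osteoclast formation, was at 14.5, 20.8 and 19.6 CPM against 3.08, 10.7 and 3.13 CPM. Its groups were apart, and it fell by 1.70 on the log2 scale (SE 0.53, adjusted p of 0.137 in edgeR), a call lost without 3%-Axitinib replicate 3 (-1.41) and without both libraries that stood apart (-1.38). Spi1 (PU.1), the most abundant of the role per kilobase, had a log2 fold change of -0.19 (SE 0.29, adjusted p of 0.721). Among the 3 repressors of osteoclast formation, Irf8 met the criterion as lower (-0.73, SE 0.28, adjusted p of 0.184 in edgeR) with overlapping groups. The Irf8 call was lost without 0%-Axitinib replicate 2 (-0.67) or 3 (-0.61) and without 3%-Axitinib replicate 1 (-0.57) or 2 (-0.66).

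Of the 10 genes of acid secretion and matrix digestion, 2 met the criterion as lower and 1 as higher. Ostm1, a partner of the lysosomal chloride transporter, fell by 0.73 on the log2 scale with groups apart (SE 0.23, adjusted p of 0.138 in edgeR). Its call was lost without 0%-Axitinib replicate 2 (-0.54) and without 3%-Axitinib replicate 1 (-0.65). Car2, the carbonic anhydrase that supplies protons, was at 18.3, 28.7 and 365 CPM in the 0%-Axitinib group and at 8.47, 13.8 and 20.5 CPM in the 3%-Axitinib group. A single sample, 0%-Axitinib replicate 3, was high, and the groups overlapped without it as with it. Car2 had a log2 fold change of -3.26 (SE 1.16, adjusted p of 0.162 in edgeR), and -0.71 without 0%-Axitinib replicate 3, where the criterion was not met. It was also not met without any 1 of the 3%-Axitinib samples (-2.97, -3.21 and -3.59 without replicates 1, 2 and 3). The neutrophil and marrow genes were also high in that library, and their part in the Car2 value was not tested.

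Mmp14, a membrane-bound collagenase, was at 605, 440.5 and 499 CPM in the 0%-Axitinib group and at 858, 925 and 848 CPM in the 3%-Axitinib group. All treated samples were above all 0%-Axitinib samples, and Mmp14 rose by 0.77 on the log2 scale (SE 0.25, adjusted p of 0.145 in edgeR). The call was lost without 0%-Axitinib replicate 2 (0.66) and without replicate 1 (0.79) or 2 (0.73) of the 3%-Axitinib group. Mmp9 was at 613, 595 and 1759.8 CPM against 81.7, 1884 and 600.3 CPM, with high values in 0%-Axitinib replicate 3 and 3%-Axitinib replicate 2 as for Acp5. The groups overlapped, and the log2 fold change was -0.21 (SE 0.99, adjusted p of 0.912 in edgeR), turning to 0.34 without 3%-Axitinib replicate 1 and to 0.50 without 0%-Axitinib replicate 3. Slc9b2 was at 68.7, 58.1 and 76.7 CPM against 5.28, 108 and 25.2 CPM, again with its lowest value in 3%-Axitinib replicate 1 and its highest in 3%-Axitinib replicate 2.

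Of the 20 genes of cell fusion and giant cell formation, 3 met the criterion as lower and 2 as higher. Il4ra, the receptor for the cytokine that drives macrophage fusion, was at 103, 76.8 and 63.5 CPM in the 0%-Axitinib group and at 279, 187 and 119 CPM in the 3%-Axitinib group. Every treated sample was above every 0%-Axitinib sample, and the highest was 3%-Axitinib replicate 1. Il4ra rose by 1.27 on the log2 scale (SE 0.35, adjusted p of 0.118 in edgeR), and met the criterion with each sample left out in turn. With both libraries that stood apart left out it was 0.76 with an unadjusted p of 0.0503 in edgeR, so the criterion was not met.

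Tm4sf19, a tetraspanin-like gene of osteoclasts, was at 62.5, 147 and 8.74 CPM in the 0%-Axitinib group and at 6.82, 9.93 and 22.8 CPM in the 3%-Axitinib group. 0%-Axitinib replicates 1 and 2 were high and replicate 3 was among the treated samples, so the groups overlapped. Its log2 fold change was -2.45 (SE 0.94, adjusted p of 0.181 in edgeR), and the call was lost without 0%-Axitinib replicate 1 (-2.56) or 2 (-1.43) and without 3%-Axitinib replicate 1 (-2.15) or 2 (-2.28). Tm4sf19 met the criterion without 0%-Axitinib replicate 3 (-2.97, adjusted p of 0.0428 in edgeR) and without both libraries that stood apart (-2.67). The scavenger receptor gene Cd36, the most abundant of the role per kilobase, was at 1392, 3367 and 469 CPM against 443, 409 and 711 CPM. The groups overlapped, and the log2 fold change was -1.74 (SE 0.69, adjusted p of 0.190 in edgeR). The Cd36 call was lost with any sample but 0%-Axitinib replicate 3 left out, with -0.84 without 0%-Axitinib replicate 2 and -1.88 without 0%-Axitinib replicate 1. Without the 3%-Axitinib replicates 1, 2 and 3 in turn it was -1.63, -1.59 and -2.04.

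Genes of other cell types in the tissue were measured beside the members. Of the 12 macrophage genes, led by Lyz2, 0 met the criterion in edgeR and their median log2 fold change was -0.07, while 2 of them (Csf1r and Mrc1) were also on the list of 60. The 10 skeletal muscle genes, led by Acta1, summed to 134, 6.65 and 12.5 CPM in the 0%-Axitinib group and to 13312, 18.7 and 7406 CPM in the 3%-Axitinib group. Of these, 8 met the criterion as higher (1 without both libraries that stood apart), with overlapping groups, and Ckm and Myh4 were at 0 in 0%-Axitinib replicate 3 and 3%-Axitinib replicate 2. Muscle genes were thus high in the treated samples in which most members were low (replicates 1 and 3), and low in 3%-Axitinib replicate 2. With the mean log2 CPM of the muscle genes as a covariate, 0 of the 10 members met the criterion (12.3% of all genes, against 21.2% without it). The median log2 fold change of the members was then -0.12. Muscle sums were high only in treated samples, so this covariate and the group cannot be fully separated. The part of muscle in the member values was not tested.

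The 8 neutrophil and marrow genes, led by S100a9, summed to 36.5, 42.6 and 37009 CPM in the 0%-Axitinib group and to 148, 84.0 and 41.0 CPM in the 3%-Axitinib group. Mpo and Elane were at 0 in 0%-Axitinib replicate 2, and 6 of the 7 tested genes met the criterion as lower (1 without 0%-Axitinib replicate 3, and 1, 0 and 0 when replicates 1, 2 and 3 of the 3%-Axitinib group were left out in turn). Without 0%-Axitinib replicate 3, 1 met it as higher. The 7 T cell genes summed to 14.4, 21.9 and 190 CPM against 14.6, 7.93 and 15.1 CPM. By mean CPM they were led by Cd3d, at 66.7 CPM in 0%-Axitinib replicate 3 and at most 1.57 CPM in the other samples, where Cd2 led. Cd3d was at 0 in 3%-Axitinib replicates 2 and 3 and Cd3g in 3%-Axitinib replicate 3. Of the 5 tested T cell genes, 4 met the criterion as lower (3 without 0%-Axitinib replicate 3, and 2 without both libraries that stood apart). It was met by 2 of 7 tested without 3%-Axitinib replicate 3, and by 6 of 7 without 0%-Axitinib replicate 1. Both lists were therefore highest in 0%-Axitinib replicate 3, the sample with the highest Dcstamp, Acp5, Oscar and Itgb3 and the lowest Ctsk, and their part in these values was not tested.

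Dendritic cells also derive from the myeloid lineage and express several of the genes above. The 7 dendritic cell genes, led by Itgax, summed to 1441, 2286 and 376 CPM in the 0%-Axitinib group and to 424, 309 and 829 CPM in the 3%-Axitinib group. None was at 0, and 5 of the 7 met the criterion as lower. Most of each sum was Itgax, which did not meet the criterion. The 0%-Axitinib sample with the highest value was replicate 2 for Itgax and replicate 3 for Flt3, Xcr1, Clec9a and Ccr7, 4 genes chosen after their values were seen.

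Osteoblasts supply RANK ligand and CSF1 to osteoclasts where bone forms. The 10 genes of osteoblasts and osteocytes, led by Ibsp, summed to 348, 279 and 749 CPM in the 0%-Axitinib group and to 1394, 13534 and 2684 CPM in the 3%-Axitinib group, with none at 0. Of these, 4 met the criterion as higher and 0 as lower, and their median log2 fold change was 1.88. Without both libraries that stood apart, 9 met it as higher, beside 25.5% of all tested genes in either direction. The species of their reads was not analysed. The highest sum was in 3%-Axitinib replicate 2, the treated sample with the highest value of all 10 members. Bglap and Bglap2 are near-identical copies whose reads may be split between them. Of the 8 fibroblast genes, 2 met the criterion as higher (0 without both libraries that stood apart), with none at 0.

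Promoter sequences, from 250 bases before to 50 after the annotated start, were taken from RefSeq (GRCm38.p6), in which 4 of the 10 members matched with 7 windows. They are shown for Oscar and Acp5, the members nearest to each other, and for Ctsk, which followed another pattern. Of the 3 Acp5 windows, the one shown holds the most NFAT cores and was chosen for that. Capitals mark the NFAT core GGAAA on either strand (TTTCC on the other).
Oscar (chr7:3616108-3616407, minus strand): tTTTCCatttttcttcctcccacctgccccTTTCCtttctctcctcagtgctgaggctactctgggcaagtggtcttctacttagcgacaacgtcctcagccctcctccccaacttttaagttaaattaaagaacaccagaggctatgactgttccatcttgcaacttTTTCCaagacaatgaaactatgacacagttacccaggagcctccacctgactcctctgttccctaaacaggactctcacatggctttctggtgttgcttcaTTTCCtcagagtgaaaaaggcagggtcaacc
Acp5 (chr9:22130549-22130848, minus strand): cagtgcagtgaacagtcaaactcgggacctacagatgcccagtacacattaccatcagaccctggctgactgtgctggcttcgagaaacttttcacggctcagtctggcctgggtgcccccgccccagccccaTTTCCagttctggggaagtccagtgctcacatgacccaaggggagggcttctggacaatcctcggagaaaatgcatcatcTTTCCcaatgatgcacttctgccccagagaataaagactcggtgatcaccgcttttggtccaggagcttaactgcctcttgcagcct
Ctsk (chr3:95498960-95499259, plus strand): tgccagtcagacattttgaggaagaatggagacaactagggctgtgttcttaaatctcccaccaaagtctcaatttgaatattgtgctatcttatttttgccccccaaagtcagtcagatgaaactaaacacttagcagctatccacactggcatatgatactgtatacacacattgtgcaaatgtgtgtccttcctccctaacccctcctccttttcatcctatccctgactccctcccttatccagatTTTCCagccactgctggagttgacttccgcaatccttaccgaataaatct
The NFAT core occurred 4 times in the Oscar window, 2 times in the Acp5 window and 1 time in the Ctsk window. In the windows not shown it occurred 1 time in each of 2 for Acp5, and 0 and 1 time in the 2 for Calcr. Of 32851 promoter windows of the same length, 61.3% held it at least 1 time, with a median of 1. The PU.1 box GAGGAA, which overlaps GGAAA where an A follows, was found 2 times in the Oscar window and 2 times in the Ctsk window, and in 28.3% of all windows. The E-box CATGTG was found 1 time in the Oscar and in the Acp5 window (14.2% of all windows). Neither CACGTG (7.15% of all windows) nor the AP-1 letters TGANTCA (7.81%) were found in these 3 windows. Each motif was searched on both strands, and a match describes letters and not a bound site.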

How the data were processed

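RNA of mouse tissue around BEC was sequenced in 3 samples of the 0%-Axitinib group and 3 of the 3%-Axitinib group. Unnormalized gene counts deposited by the authors were used. Per the study's methods the reads were filtered with fastp, and per the submitters' processing notes they were mapped with STAR 2.5.2b to mm10 (GRCm38). The annotation release and the strand setting are not given in the sources used here. The 4 lines of reads on no gene entered neither library sizes nor tests, and unmapped reads made up 3.84% to 48.4% of a library.

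The fit used edgeR 4.0.16 in R 4.3.3: filterByExpr (minimum count 10, minimum total 15), TMM and the two-sided quasi-likelihood test on the whole table, with Benjamini-Hochberg adjustment over 15257 genes. SE is the log2 fold change divided by the root of the F statistic. The study's criterion was a fold change of at least 1.5 with an unadjusted p of at most 0.05. An exact permutation test of 3 against 3 samples cannot give a p below 0.1 and was not used. Positions and exon lengths are from GENCODE M21, and intervals are exact Poisson intervals at 95%. Scripts were tested on simulated data. Figures were drawn with matplotlib 3.10.9 in Python 3.11.15.

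The members and all lists were chosen with earlier results of these data known. Named genes are all members, up to 12 listed pathway genes that met the criterion or had groups apart (smallest p first), the most abundant gene of each role (per kilobase) and of each cell type list, and the 3 genes nearest to each member, though not every gene so chosen is given in the text. Itga2b, Itgav, genes at 0, genes on 2 lists, gene copies and the genes in the other observations were added after their values were seen.

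Alternatives were DESeq2's size factors, library totals, TMM without muscle genes, DESeq2 1.42.0 (Wald test), limma-voom (limma 3.58.1), no filter, at least 10 counts in every sample, a fold of at least 2, a replicate block, a covariate of macrophage or muscle genes, and leaving out the samples 1 at a time. Leaving out 0%-Axitinib replicate 3 and 3%-Axitinib replicate 1 together was chosen after seeing the data, and so were the alternatives for named pathway genes, genes of other cell types and counts over all tested genes.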

Additional observations from a re-analysis of the deposited data

Results flagged for a closer look

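Reads that mapped nowhere in the mouse genome take no part in the comparisons, and their share was above that of every 0%-Axitinib library (at most 14.9%) in all 3 libraries of the 3%-Axitinib group. It was 48.4% in replicate 1, 29.2% in replicate 2 and 16.8% in replicate 3. Replicate 1, with the largest unmapped share, also had the lowest value of 9 of the 10 osteoclast and giant cell genes, whereas replicate 2 had the highest value of 3 of them. The part of the unmapped reads in these values was not tested.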

How the results depend on the processing

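The number of the 10 members past the criterion (1 with all samples) was 3 with library totals (22.5% of all tested genes), 3 with DESeq2's Wald test (23.5%), 2 with limma-voom (19.3%) and 3 without a filter (15.4%). It was 0 with the macrophage (22.1%) or the muscle genes (12.3%) as a covariate. Leaving out 1 sample at a time gave 0 to 3 (14.9% to 28.2%). The cause was not tested. It was 1 with DESeq2's size factors, TMM without muscle genes, at least 10 counts in every sample (8 members tested, without Oscar and Calcr), a fold of at least 2, and both libraries that stood apart left out. The number past the adjusted threshold (0) was between 0 and 1 with a sample left out. The number with groups apart as lower (3) was then between 3 and 8 (18.5% to 27.3% of all tested genes). The 8 came without 3%-Axitinib replicate 2, beside 21.4% of all tested genes. For the 60 pathway genes the count of 15 was 6 with the muscle covariate, 7 at a fold of at least 2, and between 6 and 21 with a sample left out. Over all tested genes, 3241 became 1870 with the muscle covariate and 1951 at a fold of at least 2. Library totals moved the median log2 fold change of all genes from -0.03 to -0.16, and that of the members from -0.69 to -0.84, and the latter was -1.09 with limma-voom.

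Deviations from the group means correlated at 0.182, -0.115 and -0.174 for same-numbered samples, and between -0.221 and 0.212 for differently numbered ones. Taken from means of 3 samples, these values cannot settle whether the replicate numbers pair the samples. With the replicate number as a block, 2 members met the criterion (17.1% of all tested genes), Itgb3 (-1.30) and Dcstamp (-1.42), and the median of the members was -1.02.

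Of 168 member estimates under the alternatives, 135 kept direction and call, 6 (all Itgb3) lost the call, 12 gained it and 15 changed sign, for which the cause was not tested. With the muscle covariate the log2 fold change was 0.64 for Ocstamp, 0.42 for Acp5, 0.40 for Calcr, 0.76 for Mmp9 and 0.0033 for Spi1. With both libraries that stood apart left out it was 0.55 for Ocstamp, 0.58 for Acp5, 0.11 for Oscar, 0.059 for Calcr, 1.03 for Mmp9, 0.19 for Spi1 and 0.0071 for Tyrobp. Ctsk was at -0.0066 with library totals. With a sample left out, the ranges were -1.25 to 0.46 for Ocstamp, -1.60 to 0.060 for Acp5, -0.040 to 0.31 for Ctsk, -1.61 to 0.27 for Calcr, -2.51 to -0.43 for Oscar, -1.52 to 0.50 for Mmp9 and -0.37 to 0.056 for Spi1. Itgb3 lost its call with the macrophage (-1.26) and the muscle covariate (-0.97). Of 305 estimates of named pathway genes, alternatives chosen after seeing the data, 241 kept direction and call, 52 lost the call, 4 gained it and 8 changed sign. Depth limits Oscar and Calcr most, with 4 and 2 reads in the shallowest library.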

Other observations

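Genes of bone formation varied widely among the treated samples, and those named here besides Ibsp were chosen after their values were seen. Ibsp, a matrix protein of mineralizing tissue, was at 235, 182 and 329.9 CPM in the 0%-Axitinib group and at 1047, 10536 and 1807 CPM in the 3%-Axitinib group. The osteocyte gene Sost was at 5.12, 5.42 and 11.2 CPM against 27.2, 141 and 83.9 CPM, and Alpl, the alkaline phosphatase of osteoblasts, at 19.9, 23.4 and 68.3 CPM against 118, 1424 and 324 CPM. All treated samples were above all 0%-Axitinib samples for these 3 genes, as for 14.7% of all tested genes. The highest value of these 3 genes was in 3%-Axitinib replicate 2. Osteocalcin (Bglap) had another order, at 5.32, 1.22 and 111 CPM in the 0%-Axitinib group and at 0.550, 26.4 and 21.5 CPM in the 3%-Axitinib group, with its lowest value in 3%-Axitinib replicate 1, as for 9 of the 10 osteoclast and giant cell genes. On the log2 scale the change was 4.16 for Ibsp (SE 0.96, adjusted p of 0.0973 in edgeR), 3.53 for Sost, 4.06 for Alpl and -1.27 for Bglap (SE 1.63, adjusted p of 0.662 in edgeR). Without 0%-Axitinib replicate 3 and 3%-Axitinib replicate 1 it was 4.88, 4.41, 5.33 and 2.85, so the sign of Bglap changed. In its histology at the same time point, the paper describes ossification in constructs without the drug and not in the treated group compared here. The species of the reads of these genes was not analysed, and whether the host tissue formed bone was not tested.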
